A study of Homo sapiens with 90 samples.

Results

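The 37 genes described here mark or drive the mesenchymal state, build the extracellular matrix, or form the contractile cytoskeleton and its anchors to the matrix. They were taken as a list of symbols, and each was matched to 1 of the 53893 gene IDs of an RNA sequencing count table. Among them, CDH1 and EPCAM are epithelial adhesion genes that mark the opposite end of the same axis. The genes fall into 9 roles, which are 2 epithelial adhesion genes, 3 mesenchymal markers, 5 transcription factors of the epithelial-mesenchymal transition, 5 fibrillar collagens, 5 basement membrane and type VI collagens, 8 matrix glycoproteins and proteoglycans, 2 crosslinking enzymes, 5 contractile genes and 2 integrins.

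The libraries come from 6 cancer lines of human origin, each kept under an inhibitor of its own driver pathway, under THZ1, under both together, or under vehicle. THZ1 binds covalently to CDK7, a kinase of transcription initiation, and to its relatives CDK12 and CDK13. For each line 15 libraries were made, 3 in each of 5 arms, 90 in all: the combination for 48 h, the targeted drug for 7 days, the targeted drug for 48 h, THZ1 for 48 h, and 0.1% DMSO for 48 h. A375, a melanoma line with mutant BRAF, received the BRAF inhibitor vemurafenib at 1 uM and THZ1 at 50 nM. A549, a lung line, was given 200 nM of GSK1120212 (trametinib), which inhibits MEK, and THZ1 at 150 nM. H3122, a lung line with an ALK fusion, received the ALK inhibitor crizotinib at 250 nM and THZ1 at 50 nM. N87, a gastric line with amplified ERBB2, received lapatinib, which inhibits EGFR and ERBB2, at 100 nM and THZ1 at 25 nM. PC9, a lung line with mutant EGFR, was given 1 uM of erlotinib, which inhibits EGFR, and THZ1 at 100 nM. RT112, a bladder line with an FGFR3 fusion, received the FGFR inhibitor BGJ398 at 1 uM and THZ1 at 100 nM. Each condition is a single line grown as a monoculture in medium with 10% serum, A375 in DMEM and the others in RPMI, and drug and line cannot be told apart since every targeted drug was given to 1 line. There is no vehicle arm at 7 days, so the 7-day arm is set against the same drug at 48 h, and time in culture and time on drug cannot be told apart. Nothing in the labels ties the 3 libraries of an arm to separate cultures, and p-values within a line then measure only the spread between these libraries.

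Epithelial cells hold together through E-cadherin, while mesenchymal cells carry vimentin filaments and N-cadherin, secrete collagens and glycoproteins, and pull on that matrix through integrins and actomyosin. The transcription factors ZEB1, ZEB2, SNAI1, SNAI2 and TWIST1 repress E-cadherin and favour the mesenchymal program, and TGF-beta is its best known inducer. Collagen is secreted as trimers and crosslinked outside the cell by lysyl oxidases, and carcinoma cells can make part of this matrix themselves.

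Levels are given in CPM, the expected counts of a gene divided by its library's total and scaled to a common total, so they can be set side by side between libraries for 1 gene but not between genes, since they are not divided by gene length. Library totals ran from 5.64 to 14.36 M, the nearest library of all 90 was one of the same arm and line, and replicates correlated at 0.9806 or more on log2 CPM. 1 A375 vemurafenib library carries a lung tissue label, and its nearest library too was of its own group. In RT112, replicate 1 of the combination, 7-day, BGJ398 and DMSO arms, and in H3122 replicate 1 of the 7-day arm, stood apart from the other libraries of their groups, with a chi-square per gene of up to 18.9 in RT112 and 23.0 in H3122, against a median of 2.43 over all pairs of replicates. The RT112 combination library did so least, at 3.49 and 4.93 against 2.31 for the other pair of its group. That is short of 2 times the other pair, but this library was left out below with the others. Replicate 1 of vemurafenib at 48 h in A375, of GSK1120212 at 7 days in A549, of the combination in H3122 and of lapatinib at 7 days in N87, and replicate 4 of DMSO in PC9, differed from both others of their groups by at least 2 times the remaining pair, at 3.64 to 8.03. Leaving out any 1 of these 5 moved no count of members called higher or lower by more than 2. Tissue markers went with the lines only in part. SOX10 averaged 986 CPM in A375, NKX2-1 434 CPM in H3122 and UPK1B 758 CPM in RT112. At least 1 CPM was reached by 5 of 7 melanocytic markers in A375, 4 of 6 lung markers in H3122 and 5 of 6 urothelial markers in RT112. In A375 TYR averaged 0.0471 CPM and PMEL 2.01 CPM, and UPK1B also averaged 234 CPM in A549. None of 6 lung markers averaged 1 CPM in A549 or PC9 and only 1 of 6 gastric markers did in N87. MUC5AC, a gastric marker, averaged 37.8 CPM in A549 and 43.0 CPM in H3122 against 1.71 CPM in N87. The markers thus do not settle the identity of each line. Fibroblast and pericyte genes outside the 37 summed to 8.91 to 44.3 CPM in A375 and 26.2 to 109 CPM in PC9. In the other lines they summed to at most 20.6 CPM. The sum of 5 endothelial genes reached 64.9 CPM in H3122, led by CDH5, and at most 16.8 CPM in the other lines. In H3122 it was 60.2 to 64.9 CPM with crizotinib at 48 h and 16.4 to 17.7 CPM in DMSO. The combination held 18.4 to 20.3 CPM and 7 days 33.6 to 42.1 CPM, and its part in the results was not tested. Of 6 blood genes, PTPRC averaged at most 0.440 CPM in any line, CD3E and HBB were lower still, and CD68 and LYZ averaged at least 1 CPM in all 6. Their sum, led by CD68, moved with the arms, at 137.5 to 139.1 CPM with vemurafenib at 48 h against 41.0 to 44.5 CPM in DMSO in A375, 63.8 to 67.7 CPM with GSK1120212 at 48 h against 13.8 to 14.6 CPM in DMSO in A549, and 97.1 to 101.3 CPM with BGJ398 at 7 days against 53.7 to 55.7 CPM at 48 h in RT112, and its part in the results was not tested.

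In vehicle, the lines lay at different points of the epithelial-mesenchymal axis. VIM, the vimentin gene, averaged 3295 ± 46.0 CPM in A375 (SD, n = 3 here and below) and 457 ± 8.14 CPM in A549, but only 0.223 to 10.8 CPM in H3122, N87, PC9 and RT112. CDH1, the E-cadherin gene, was at 0.432 CPM in A375 and at 150.2 to 381 CPM in the other 5, so A549 held both. SPARC, a collagen-binding matricellular protein, averaged 1388 CPM in A375 and 64.0 CPM in PC9 and stayed under 1 CPM in the other 4 lines. Likewise TNC, or tenascin C, averaged 1507 CPM in A375, 272 CPM in H3122 and 10.1 CPM in N87. LUM, which encodes the proteoglycan lumican, reached 137 CPM in RT112 and under 4 CPM elsewhere, and COL1A1 was highest in H3122 at 151 CPM. FN1, fibronectin, lay between 111 and 211 CPM in the 6 lines. POSTN, or periostin, did not pass the filter on low counts in any line, and COL1A2 and COL3A1 each passed it in 2.

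**Figure D1:**
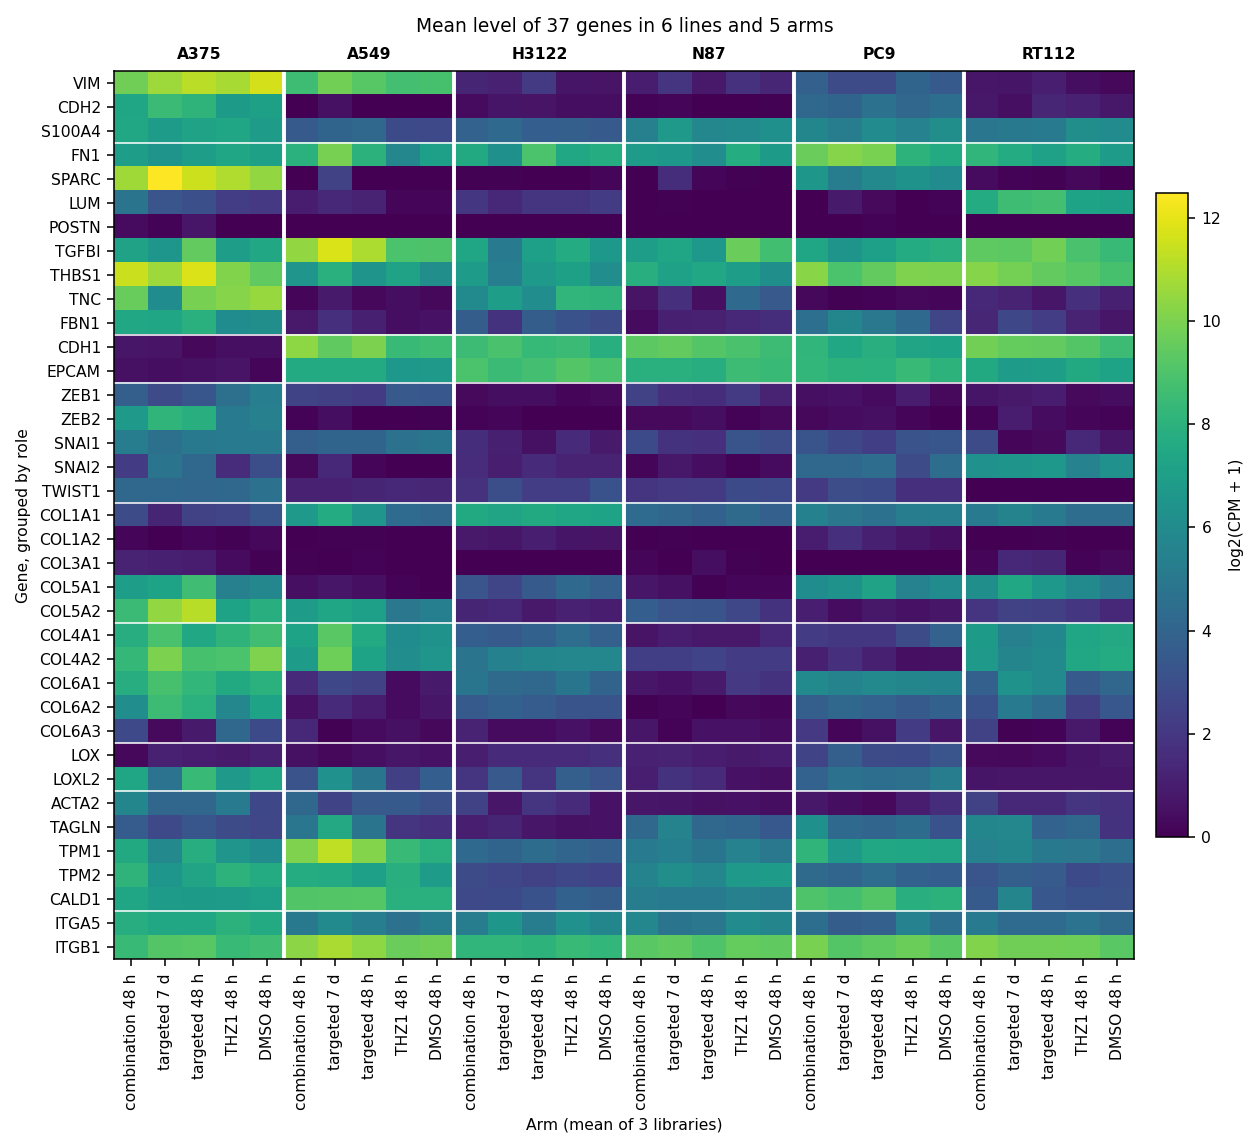
Mean level of the 37 genes, grouped by role, in 6 lines and 5 arms (3 libraries each), as log2(CPM + 1) on the colour scale, with genes down the page and arms across it. CDH1 and EPCAM are dark in A375 and bright in the other 5 lines, and the VIM row is bright only in A375 and A549.

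The first comparison asks what blocking the driver pathway for 48 h did to these genes. CDH1 rose in all 5 lines in which it was tested, and TAGLN, TPM1, THBS1 and FBN1 each rose in 5 of 6 lines. SNAI1 fell in 4 lines and was called higher in none. Beyond these, the direction depended on the line: A549 raised most members under GSK1120212, and N87 lowered most under lapatinib. Counts are edgeR quasi-likelihood calls at a Benjamini-Hochberg adjusted p under 0.05 over all genes tested, and they are set beside the share of all genes called the same way and beside the medians of the log2 fold change over the tested members and over all genes. Under vemurafenib in A375 19 of 33 tested rose and 12 fell (all genes 34.3% and 32.9%; medians 0.58 and 0.03). With GSK1120212, in A549 21 of 29 tested rose and 2 fell (all genes 36.8% and 37.4%; medians 0.99 and 0.00). With crizotinib, in H3122 9 of 30 tested rose and 8 fell (all genes 22.0% and 24.1%; medians 0.01 and 0.01). With lapatinib, in N87 5 of 25 tested rose and 16 fell (all genes 35.5% and 35.4%; medians -0.61 and 0.04). With erlotinib, in PC9 14 of 31 tested rose and 10 fell (all genes 35.2% and 32.8%; medians 0.17 and 0.03). With BGJ398, in RT112 18 of 32 tested rose and 6 fell (all genes 34.2% and 35.1%; medians 0.46 and 0.02). The members' share was thus furthest above the background for rises in A549 and for falls in N87. In these bulk libraries a change in the kinds of cells present and a change of RNA per cell cannot be told apart.

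THZ1 alone moved fewer members than the targeted drug in each line, and it moved fewer of all genes in each line too. THBS1, the thrombospondin 1 gene, and ITGA5 each rose in 5 lines, COL6A2 fell in 4 lines, and SNAI2 fell in A375, PC9 and RT112. The doses differ between lines, so the lines are not ranked. With THZ1, in A375 8 of 33 tested rose and 19 fell (all genes 26.5% and 28.9%; medians -0.42 and -0.01). Likewise in A549 4 of 29 tested rose and 11 fell (all genes 25.0% and 21.5%; medians -0.09 and 0.02). In H3122 and N87 the falls were few: in H3122 11 of 30 tested rose and 1 fell (all genes 10.8% and 12.3%; medians 0.23 and -0.00), and in N87 11 of 25 tested rose and 2 fell (all genes 14.1% and 16.3%; medians 0.25 and 0.01). For the last pair, in PC9 9 of 31 tested rose and 11 fell (all genes 26.1% and 27.7%; medians -0.13 and -0.01), and in RT112 14 of 32 tested rose and 6 fell (all genes 21.0% and 20.4%; medians 0.34 and 0.00).

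Adding THZ1 to the targeted drug was set against the targeted drug alone at 48 h. CDH1 rose further in all 5 lines tested, COL6A3 rose in all 4 lines in which it was tested, and SNAI1 rose in H3122, N87, PC9 and RT112, 3 of which had lowered it under the targeted drug. S100A4 and FBN1 each fell in 4 lines and rose in none. The 2 crosslinking genes fell in 5 and rose in 0 of their 10 tested pairs of gene and line. All genes gave 27.5% and 27.5%, each line weighted by its pairs. The 5 falls all lay in A375, A549 and PC9, and no crosslinking gene was called in H3122, N87 or RT112. Over the 3 mesenchymal markers, 10 of 15 pairs of gene and line fell and 1 rose, against 28.4% and 28.6% of all genes. By line, in A375 8 of 33 tested rose and 19 fell (all genes 35.1% and 33.4%; medians -0.52 and 0.01). Next, in A549 4 of 29 tested rose and 12 fell (all genes 20.3% and 20.6%; medians -0.17 and -0.00). Few members moved for H3122, where 6 of 30 tested rose and 3 fell (all genes 15.3% and 14.3%; medians 0.02 and 0.02). For N87, 11 of 25 tested rose and 3 fell (all genes 27.0% and 28.8%; medians 0.18 and 0.00). For PC9, 14 of 31 tested rose and 10 fell (all genes 33.4% and 34.9%; medians 0.13 and -0.00). For RT112, 14 of 32 tested rose and 10 fell (all genes 32.8% and 31.4%; medians -0.01 and 0.00). The targeted-drug libraries are shared with the first comparison, so the values of the 2 comparisons are not independent.

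The 7-day arm was set against 48 h of the same drug. A549 cells raised 18 members and lowered 2, and N87 cells raised 12 and lowered 1, whereas A375 and PC9 cells lowered more than they raised. By line, in A375 8 of 33 tested rose and 18 fell (all genes 18.6% and 21.4%; medians -0.37 and -0.00). Among A549 libraries, 18 of 29 tested rose and 2 fell (all genes 27.6% and 23.7%; medians 0.64 and 0.02). Among H3122 libraries, 11 of 30 tested rose and 11 fell (all genes 30.5% and 33.4%; medians -0.18 and -0.01). Among N87 libraries, 12 of 25 tested rose and 1 fell (all genes 22.3% and 20.3%; medians 0.32 and 0.01). Among PC9 libraries, 5 of 31 tested rose and 14 fell (all genes 25.7% and 27.2%; medians -0.26 and 0.01), and with plain library size as the scaling 9 rose and 14 fell. Among RT112 libraries, 10 of 32 tested rose and 5 fell (all genes 18.5% and 18.5%; medians 0.05 and -0.00). The 4 replicate 1 libraries of RT112 named above were also left out. Then 19 members rose and 6 fell under BGJ398 against DMSO, and 15 and 6 under THZ1. With the combination 14 rose and 11 fell, and at 7 days 12 and 7. Without the H3122 library that stands apart, 11 rose and 11 fell at 7 days. The shares of all genes called without these libraries, or with plain library size in PC9, are not given here, so these counts stand without a background.

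**Figure D2:**
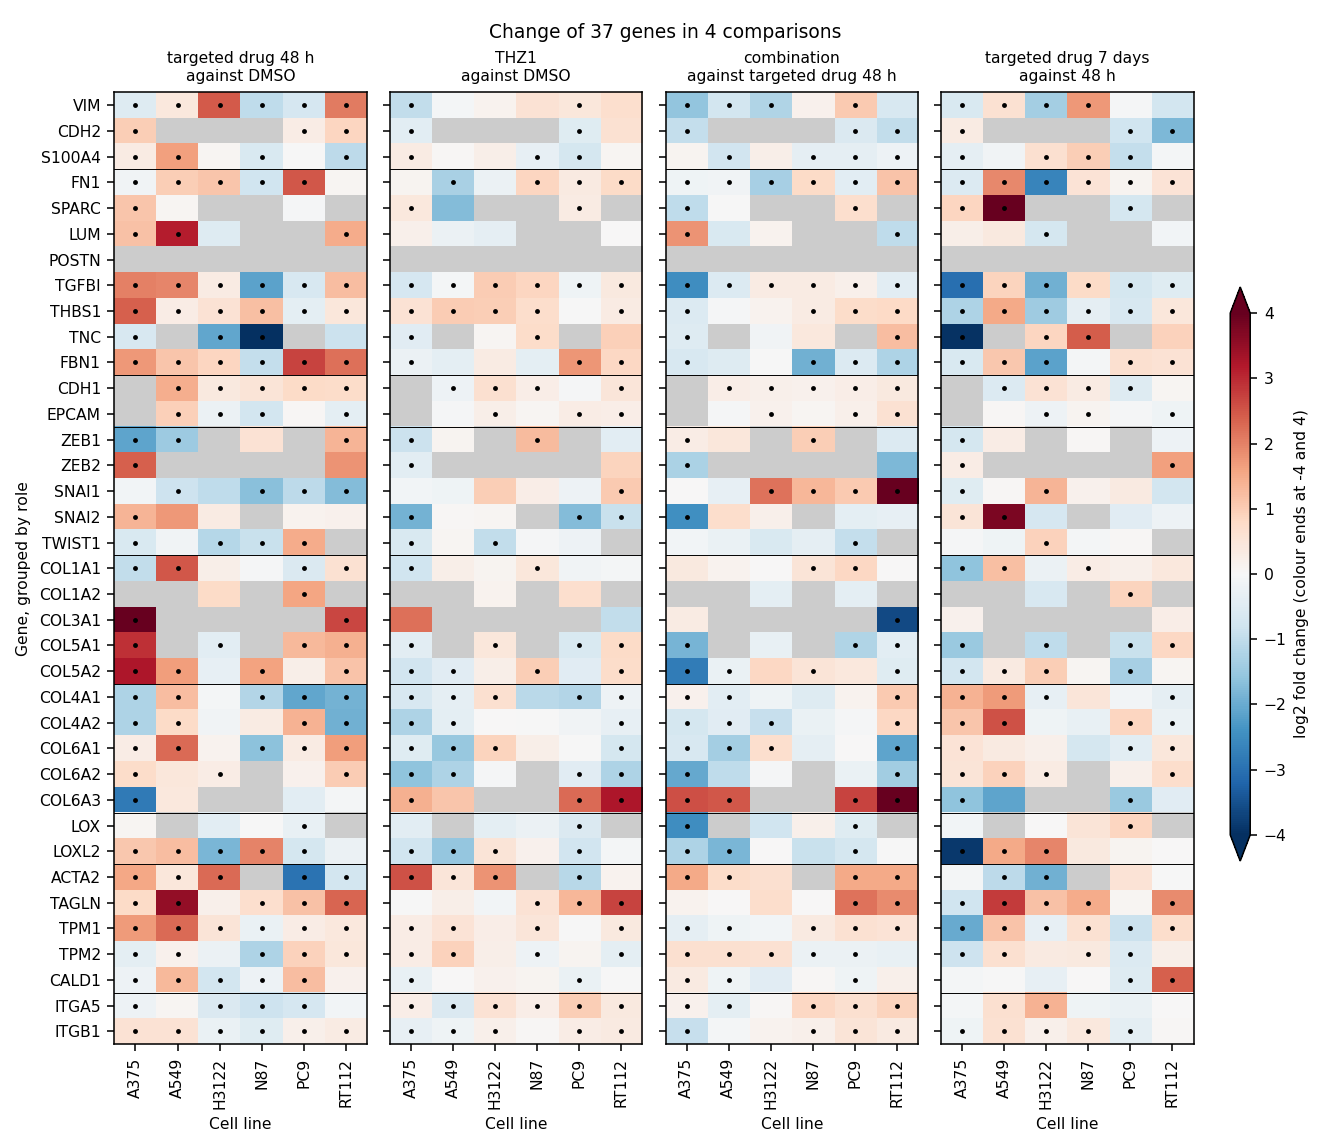
Log2 fold change of the 37 genes (rows, grouped by role) in 6 lines (columns) for the 4 comparisons, red for higher and blue for lower, with a dot where the gene was called at an adjusted p under 0.05 and grey where it was not tested. The CDH1 row is red with dots in all 5 tested lines for the targeted drug and again for the combination, and COL6A3 is red with dots in all 4 tested lines for the combination.

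CDH1 joins epithelial cells through homophilic contacts at adherens junctions. In A549, CDH1 stood at 1279, 1325 and 1314 CPM with the combination, 679, 706 and 698 CPM with GSK1120212 at 7 days, 1049, 1017 and 1031 CPM with GSK1120212 at 48 h, 314, 339 and 353 CPM with THZ1 and 381, 391 and 373 CPM in DMSO. The 3 libraries of GSK1120212 at 48 h were all above those of DMSO and below those of the combination. H3122 held 371, 369 and 381 CPM with the combination, 465, 491 and 444 CPM with crizotinib at 7 days, 318, 341 and 317 CPM with crizotinib at 48 h, 365, 364 and 369.6 CPM with THZ1 and 224, 234 and 231 CPM in DMSO. N87 held 642, 659 and 634 CPM with the combination, 693, 718 and 694 CPM with lapatinib at 7 days, 554, 559.5 and 574 CPM with lapatinib at 48 h, 471, 471 and 463 CPM with THZ1 and 367, 373 and 370.3 CPM in DMSO. In both lines every drug arm lay above DMSO without overlap. PC9 held 291, 289.8 and 304 CPM with the combination, 182, 181 and 175 CPM with erlotinib at 7 days, 225, 241 and 237 CPM with erlotinib at 48 h, 153, 153 and 152 CPM with THZ1 and 153, 146 and 152 CPM in DMSO. RT112 held 854, 888 and 926 CPM with the combination, 719, 761 and 742 CPM with BGJ398 at 7 days, 646, 727 and 732 CPM with BGJ398 at 48 h, 537, 567 and 557 CPM with THZ1 and 371, 381 and 379 CPM in DMSO. The log2 fold change for the targeted drug at 48 h was 1.46 ± 0.04 in A549 (adjusted p = 3.88e-18), 0.40 ± 0.06 in H3122 (adjusted p = 1.06e-05), 0.51 ± 0.04 in N87 (adjusted p = 1.06e-10), 0.77 ± 0.04 in PC9 (adjusted p = 4.61e-14) and 0.73 ± 0.04 in RT112 (adjusted p = 3.60e-11). The further rise with the combination was smaller, from 0.16 ± 0.04 in N87 (adjusted p = 0.000626) to 0.39 ± 0.04 in RT112 (adjusted p = 1.42e-07), and in H3122 it was 0.20 ± 0.05 (adjusted p = 0.00938), a call that was lost with no filter on low counts and without 1 crizotinib library. At 7 days CDH1 fell in A549 (-0.54) and PC9 (-0.51) and rose in H3122 (0.56) and N87 (0.32), relative to 48 h.

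EPCAM, a second epithelial adhesion molecule, rose with CDH1 under the targeted drug in A549 and fell where CDH1 rose in H3122, N87 and RT112. The difference between the 2 genes was not tested. EPCAM in A549 stood at 194, 197 and 201 CPM with the combination, 192, 194 and 198 CPM with GSK1120212 at 7 days, 194, 195 and 191 CPM with GSK1120212 at 48 h, 99.7, 102 and 95.2 CPM with THZ1 and 102, 100.2 and 102 CPM in DMSO. Its rise with GSK1120212 at 48 h was 0.95 ± 0.04 (adjusted p = 4.50e-15). In H3122 it stood at 478, 489 and 484 CPM with the combination, 369.8, 361 and 364 CPM with crizotinib at 7 days, 423, 431 and 441 CPM with crizotinib at 48 h, 572, 559 and 544 CPM with THZ1 and 473, 464 and 472 CPM in DMSO. In N87 it stood at 248, 232 and 235 CPM with the combination, 241, 231 and 241 CPM with lapatinib at 7 days, 216, 228 and 211 CPM with lapatinib at 48 h, 379, 388 and 369 CPM with THZ1 and 345, 341 and 340.1 CPM in DMSO. EPCAM fell under the targeted drug in H3122 (-0.22 ± 0.05, adjusted p = 0.000815), N87 (-0.74 ± 0.04, adjusted p = 2.37e-12) and RT112 (-0.39 ± 0.04, adjusted p = 4.90e-07). PC9 libraries had 291, 314 and 297 CPM with the combination, 258, 267 and 259 CPM with erlotinib at 7 days, 241, 255 and 253 CPM with erlotinib at 48 h, 349.8, 333 and 343 CPM with THZ1 and 263, 267 and 266 CPM in DMSO. RT112 libraries had 183, 193 and 188 CPM with the combination, 111, 114 and 113 CPM with BGJ398 at 7 days, 119, 129.8 and 135 CPM with BGJ398 at 48 h, 191, 197 and 182 CPM with THZ1 and 148, 153 and 147 CPM in DMSO. With the combination EPCAM rose in H3122, PC9 and RT112, by 0.17, 0.19 and 0.61 on the log2 scale, and the H3122 call was lost with no filter on low counts and without 1 crizotinib library.

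Among the mesenchymal markers, VIM encodes the intermediate filament of mesenchymal cells. A375 held 897, 844 and 876 CPM with the combination, 1705, 1599 and 1548 CPM with vemurafenib at 7 days, 2306, 2339 and 2335 CPM with vemurafenib at 48 h, 1686, 1932 and 1813 CPM with THZ1 and 3272, 3348 and 3266 CPM in DMSO. VIM thus fell in all 4 comparisons within A375, with log2 fold changes of -0.51 ± 0.05 for vemurafenib at 48 h against DMSO (adjusted p = 3.05e-08), -0.98 ± 0.05 for THZ1 against DMSO (adjusted p = 1.21e-11), -1.58 ± 0.05 for the combination against vemurafenib (adjusted p = 3.16e-15) and -0.61 ± 0.05 for 7 days against 48 h (adjusted p = 1.02e-08). A549 held 374, 392 and 377 CPM with the combination, 873, 927 and 909.5 CPM with GSK1120212 at 7 days, 609, 601 and 607 CPM with GSK1120212 at 48 h, 433, 448 and 425 CPM with THZ1 and 448, 459.6 and 464 CPM in DMSO. It rose with GSK1120212 at 48 h (0.42 ± 0.04, adjusted p = 6.46e-10), rose again at 7 days (0.61 ± 0.04, adjusted p = 8.86e-12) and fell in the combination (-0.73 ± 0.04, adjusted p = 4.89e-12). PC9 held 13.6, 13.9 and 12.7 CPM with the combination, 6.20, 5.89 and 7.05 CPM with erlotinib at 7 days, 4.98, 6.80 and 6.64 CPM with erlotinib at 48 h, 14.36, 15.8 and 15.7 CPM with THZ1 and 10.4, 9.87 and 11.97 CPM in DMSO. There VIM fell with erlotinib (-0.68 ± 0.12, adjusted p = 5.44e-05) and rose in the combination (1.06 ± 0.12, adjusted p = 1.22e-07). In H3122, N87 and RT112 the mean did not pass 3.30 CPM in any arm, so the rises of 2.46 in H3122 and 2.09 in RT112 with the targeted drug are changes at very low levels. VIM shares 12.4% of its annotated exon bases with the antisense gene VIM-AS1, and the strand setting of the counting is not given, so reads of the 2 cannot be told apart.

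CDH2, or N-cadherin, is the cadherin that mesenchymal cells use in place of E-cadherin. A375 libraries had 161, 156 and 164 CPM with the combination, 374, 368 and 345 CPM with vemurafenib at 7 days, 265, 281 and 281 CPM with vemurafenib at 48 h, 106, 120.1 and 109 CPM with THZ1 and 141, 128 and 143 CPM in DMSO. It rose with vemurafenib (1.00 ± 0.06, adjusted p = 1.36e-11) and fell in the combination (-0.94 ± 0.06, adjusted p = 2.52e-11), with no overlap between libraries in either case. PC9 libraries had 18.0, 15.9 and 18.3 CPM with the combination, 15.3, 15.9 and 14.8 CPM with erlotinib at 7 days, 24.3, 24.8 and 24.4 CPM with erlotinib at 48 h, 15.6, 17.7 and 15.6 CPM with THZ1 and 24.6, 20.6 and 19.9 CPM in DMSO. CDH2 also fell in the combination of PC9 (-0.57 ± 0.09, adjusted p = 6.65e-06) and at 7 days (-0.80 ± 0.09, adjusted p = 1.19e-07). S100A4, a calcium-binding protein of motile cells, fell with the combination in 4 lines. In A549, S100A4 fell to 10.2, 10.7 and 10.9 CPM with the combination, against 18.3, 17.1 and 16.9 CPM with GSK1120212 at 48 h, a log2 fold change of -0.78 ± 0.10 (adjusted p = 5.00e-06). In N87, S100A4 rose to 99.3, 112 and 106 CPM with lapatinib at 7 days, against 52.0, 54.5 and 52.0 CPM with lapatinib at 48 h, a log2 fold change of 1.00 ± 0.06 (adjusted p = 5.42e-11). In PC9, S100A4 fell to 36.7, 35.8 and 36.3 CPM with erlotinib at 7 days, against 63.2, 58.2 and 70.7 CPM with erlotinib at 48 h, a log2 fold change of -0.94 ± 0.06 (adjusted p = 1.20e-10). S100A4 thus moved in opposite directions in N87 and PC9 between 48 h and 7 days.

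Of the transcription factors, SNAI1 (Snail) was called lower in 4 lines under the targeted drug and was below DMSO in the estimate of all 6. SNAI2 was above DMSO in the estimate of all 5 lines in which it was tested, and ZEB2 in both of its lines, and each was called in A375. SNAI1 fell in N87, with 2.21, 2.22 and 2.38 CPM under lapatinib at 48 h, against 7.87, 6.12 and 6.18 CPM in DMSO (log2 fold change -1.66 ± 0.18, adjusted p = 5.71e-08). In the combination of N87 it had 5.45, 6.80 and 5.46 CPM, a rise of 1.34 ± 0.18 over lapatinib (adjusted p = 3.87e-06). In RT112, SNAI1 rose to 6.85, 5.87 and 6.55 CPM with the combination, against 0.387, 0.0778 and 0.237 CPM with BGJ398 at 48 h, a log2 fold change of 4.77 ± 0.30 (adjusted p = 1.23e-09). The RT112 level with BGJ398 rests on counts near the detection limit, and the combination also lay above DMSO, where the libraries had 0.931, 0.597 and 0.62 CPM. In A375 the SNAI1 estimates for vemurafenib (-0.10 ± 0.16, adjusted p = 0.601) and for the combination (0.03 ± 0.15, adjusted p = 0.876) did not pass the test.

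SNAI2 (Slug), its close relative, fell with THZ1 in 3 lines, whereas TWIST1 did so in 2 and ZEB1 and ZEB2 in A375. SNAI2 fell in A375, with 2.66, 1.36 and 1.97 CPM under THZ1, against 7.76, 6.26 and 6.66 CPM in DMSO (log2 fold change -1.90 ± 0.30, adjusted p = 3.31e-05). SNAI2 fell in PC9, with 7.73, 5.19 and 6.52 CPM under THZ1, against 16.6, 15.5 and 30.6 CPM in DMSO (log2 fold change -1.74 ± 0.30, adjusted p = 4.95e-05). SNAI2 fell in RT112, with 41.7, 46.0 and 48.0 CPM under THZ1, against 104, 68.4 and 64.8 CPM in DMSO (log2 fold change -0.89 ± 0.21, adjusted p = 0.00278). In these 3 lines, those with the highest SNAI2 in DMSO, no THZ1 library overlapped a DMSO library. TWIST1, a basic helix-loop-helix factor, fell in H3122. In H3122, TWIST1 fell to 3.28, 4.08 and 4.07 CPM with crizotinib at 48 h, against 7.95, 7.44 and 8.12 CPM in DMSO, a log2 fold change of -1.14 ± 0.20 (adjusted p = 0.000165). In H3122, TWIST1 fell to 5.10, 3.57 and 3.35 CPM with THZ1, against 7.95, 7.44 and 8.12 CPM in DMSO, a log2 fold change of -0.98 ± 0.20 (adjusted p = 0.00182). It was not tested in RT112, and in PC9 it rose with erlotinib by 1.48 ± 0.21 (adjusted p = 2.28e-06).

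ZEB1 and ZEB2, zinc finger repressors of E-cadherin, parted in A375. ZEB1 stood there at 12.9, 12.5 and 12.7 CPM with the combination, 5.33, 5.48 and 8.06 CPM with vemurafenib at 7 days, 8.22, 9.69 and 9.51 CPM with vemurafenib at 48 h, 24.5, 21.2 and 25.0 CPM with THZ1 and 38.3, 39.2 and 40.7 CPM in DMSO. ZEB2 stood at 107, 101 and 104 CPM with the combination, 269, 317 and 279 CPM with vemurafenib at 7 days, 242, 209.5 and 214 CPM with vemurafenib at 48 h, 34.9, 32.6 and 33.4 CPM with THZ1 and 41.1, 44.6 and 40.3 CPM in DMSO. Under vemurafenib ZEB1 fell by 2.10 (SE 0.11, adjusted p = 4.94e-12) while ZEB2 rose by 2.40 ± 0.07 (adjusted p = 1.45e-15), and THZ1 lowered both (ZEB1 -0.85, ZEB2 -0.43). In the combination ZEB2 fell relative to vemurafenib (-1.26 ± 0.07, adjusted p = 3.92e-12), whereas ZEB1 was slightly higher (0.30 ± 0.12, adjusted p = 0.0354), a call that was lost in DESeq2, with no filter, and without any 1 of 5 of the 6 libraries compared. A549 libraries had 4.38, 6.03 and 4.20 CPM with the combination, 5.02, 3.23 and 4.01 CPM with GSK1120212 at 7 days, 3.46, 2.78 and 4.05 CPM with GSK1120212 at 48 h, 12.4, 9.39 and 9.31 CPM with THZ1 and 8.27, 11.1 and 9.45 CPM in DMSO of ZEB1. It fell with GSK1120212 there too (-1.46 ± 0.19, adjusted p = 6.30e-07), and the combination did not differ from GSK1120212 past the threshold (0.44 ± 0.21, adjusted p = 0.107). In H3122 and PC9 ZEB1 did not pass the filter on low counts, and ZEB2 passed it in A375 and RT112 only.

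**Figure D3:**
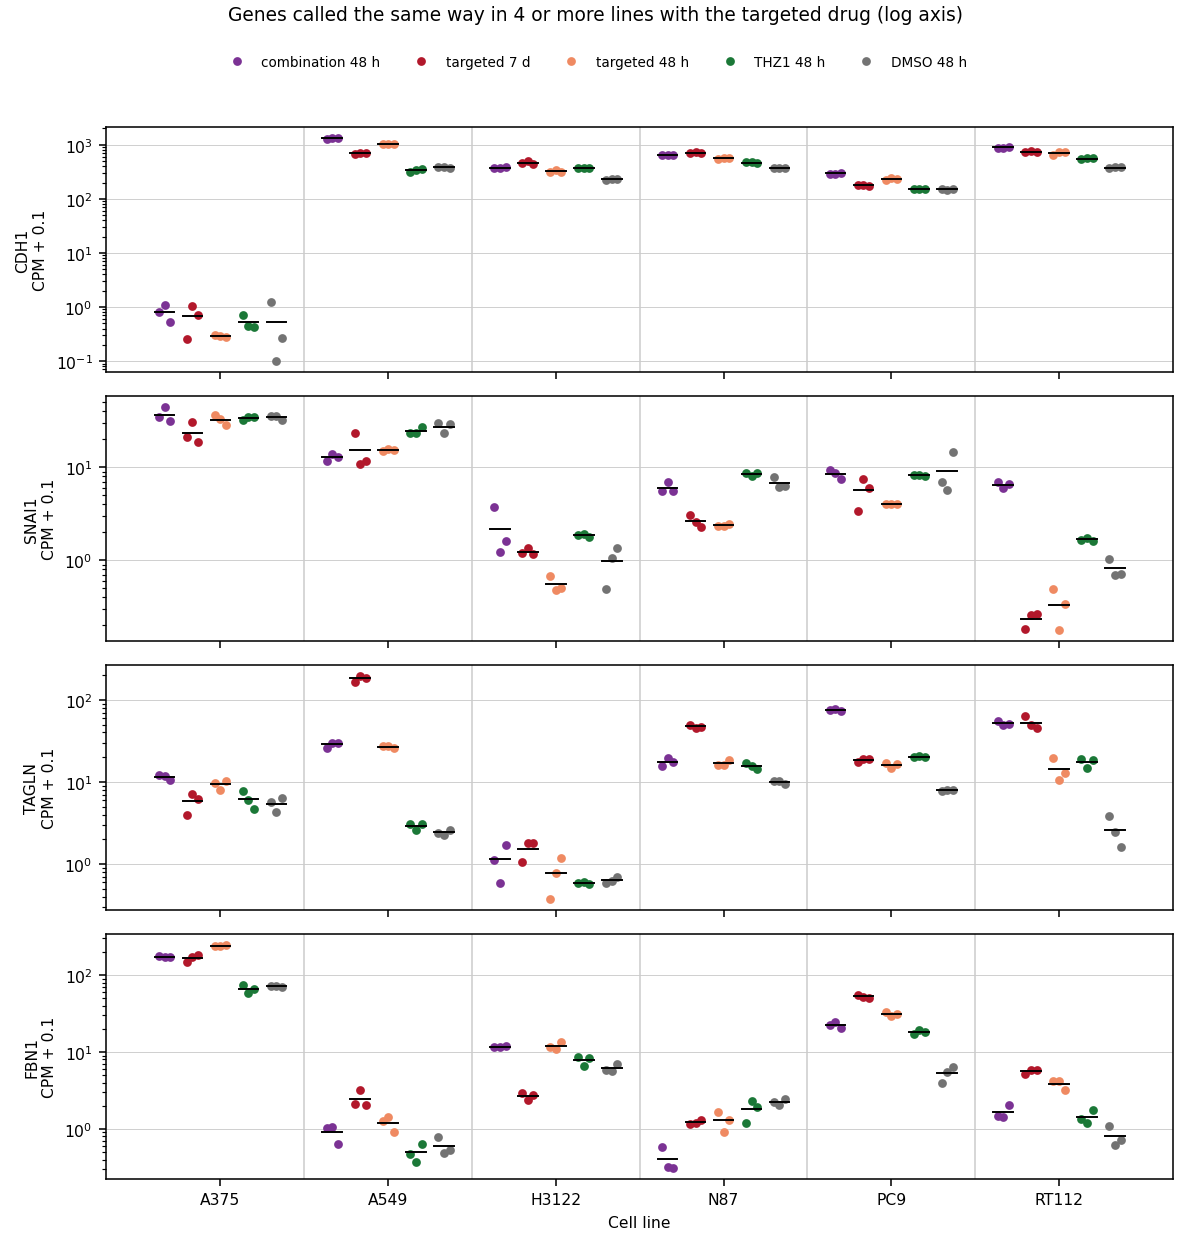
CPM + 0.1 on a log axis of CDH1, SNAI1, TAGLN and FBN1 in every library, by line and arm, with a black bar at the mean of 3 libraries. The 3 DMSO libraries of TAGLN lie below those of the targeted drug at 48 h in A375, A549, N87, PC9 and RT112, and the combination libraries of SNAI1 in RT112 lie above the 4 other arms.

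Fibrillar collagens form the tensile fibers of connective tissue. The type V chains COL5A1 and COL5A2, which nucleate and limit fibril growth, rose in A375. COL5A2 rose in A375, with 2165, 2252 and 2282 CPM under vemurafenib at 48 h, against 237, 235 and 233 CPM in DMSO (log2 fold change 3.25 ± 0.04, adjusted p = 3.11e-20). COL5A1 rose in A375, with 375.3, 423 and 417 CPM under vemurafenib at 48 h, against 56.3, 55.7 and 48.4 CPM in DMSO (log2 fold change 2.93 ± 0.07, adjusted p = 4.62e-17). The 3 vemurafenib libraries of each gene were far above the DMSO libraries. In A375, COL5A2 fell to 367, 344 and 369.5 CPM with the combination, against 2165, 2252 and 2282 CPM with vemurafenib at 48 h, a log2 fold change of -2.80 ± 0.04 (adjusted p = 1.78e-19). COL5A1 fell as well in that combination, to 124, 132 and 117 CPM (-1.87 ± 0.06, adjusted p = 7.51e-15), and both stayed above DMSO. In PC9, a line with low COL5A2, COL5A1 had 145, 144 and 142 CPM with erlotinib against 62.8, 64.8 and 66.1 CPM in DMSO (1.29 ± 0.05, adjusted p = 9.33e-16). In PC9, COL5A1 fell to 69.1, 63.3 and 65.9 CPM with the combination, against 145, 144 and 142 CPM with erlotinib at 48 h, a log2 fold change of -1.195 ± 0.05 (adjusted p = 5.85e-15). With erlotinib at 7 days, PC9 cells held 87.5, 82.4 and 81.7 CPM of COL5A1, against 145, 144 and 142 CPM with erlotinib at 48 h (log2 fold change -0.90 ± 0.04, adjusted p = 1.13e-12). The RT112 cells went the other way at 7 days. With BGJ398 at 7 days, RT112 cells held 176, 184 and 166 CPM of COL5A1, against 99.6, 96.7 and 105 CPM with BGJ398 at 48 h (log2 fold change 0.82 ± 0.06, adjusted p = 1.08e-08). With THZ1 alone the N87 cells raised COL5A2. In N87, COL5A2 rose to 4.03, 6.14 and 5.84 CPM with THZ1, against 3.36, 2.62 and 1.82 CPM in DMSO, a log2 fold change of 0.97 ± 0.21 (adjusted p = 0.00174). In PC9 the fibroblast and pericyte genes outside the 37, led by MFAP5, rose with erlotinib at 48 h as COL5A1 did. Their sums were 69.0 to 76.4 CPM in the combination, 53.0 to 62.8 CPM at 7 days, 100.0 to 108.9 CPM with erlotinib at 48 h and 26.2 to 27.1 CPM in DMSO. In the combination this sum lay above DMSO, whereas COL5A1 overlapped DMSO. In A375, led by PDGFRB, the same genes rose with vemurafenib at 48 h as COL5A1 and COL5A2 did. Their sums there were 13.1 to 15.2 CPM in the combination, 27.9 to 31.8 CPM at 7 days, 37.8 to 44.3 CPM with vemurafenib at 48 h and 23.4 to 27.5 CPM in DMSO. In that combination the sum lay below DMSO, whereas COL5A1 and COL5A2 stayed above it. The part of the fibroblast and pericyte genes in these results was not tested.

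COL1A1, the alpha 1 chain of type I collagen, moved most in A549. COL1A1 rose in A549, with 89.9, 93.5 and 87.1 CPM under GSK1120212 at 48 h, against 15.5, 15.5 and 18.4 CPM in DMSO (log2 fold change 2.47 ± 0.11, adjusted p = 1.58e-14). It rose further at 7 days, to 243, 175 and 188 CPM (adjusted p = 3.21e-10 against 48 h). COL1A2, which encodes the partner chain of type I collagen, had at most 0.0562 CPM on average in any arm of A549 and was not tested there. In H3122, where COL1A1 had 182, 185 and 198 CPM with crizotinib against 139.7, 161 and 151 CPM in DMSO, the difference was 0.22 ± 0.10 (adjusted p = 0.0853), and none of the 4 comparisons passed the threshold in that line. COL3A1 stayed under 2 CPM on average in each of the 30 groups.

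COL4A1 and COL4A2 encode the 2 chains of the type IV collagen network of basement membranes. The genes lie head to head and are transcribed in opposite directions from a short shared start region. It is printed here because both genes turned in the same direction with the targeted drug in 3 lines and apart in 1. In N87 only COL4A1 was called, and in H3122 neither gene was. The stretch is RefSeq sequence of GRCh38.p14, chr13:110307108-110307407, plus strand, with the 126 bases between the 2 annotated starts in capitals. COL4A1 starts at the base just left of the capitals and runs leftward, and COL4A2 starts at the base just right of them and runs rightward.
COL4A1-COL4A2: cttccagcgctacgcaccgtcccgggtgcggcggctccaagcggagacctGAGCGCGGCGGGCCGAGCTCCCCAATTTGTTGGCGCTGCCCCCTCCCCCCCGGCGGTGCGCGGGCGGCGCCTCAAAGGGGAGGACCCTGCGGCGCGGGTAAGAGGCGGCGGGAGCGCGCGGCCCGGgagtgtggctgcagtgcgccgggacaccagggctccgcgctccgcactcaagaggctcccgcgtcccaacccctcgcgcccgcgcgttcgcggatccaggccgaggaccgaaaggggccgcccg
The bases between the starts are 80.2% G or C, against a median of 58.7% over all 35116 RefSeq promoter windows of 300 bases. They hold 1 GC box (GGGCGG or its reverse complement CCGCCC), a motif found in 45.0% of all windows, and 1 CCAAT box (CCAAT or ATTGG), found in 34.6%. No TATA box of the letters TATAAA or TTTATA was in this window, against 11.5% of all windows. The promoter windows run from 250 bases before a start to 50 bases after it. The 126 bases are shorter and placed differently, so their G or C share and box counts are not like for like with the windows.

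Under the targeted drug both chains moved side by side in A375, A549 and RT112. A375 cells had 214, 218 and 224 CPM with the combination, 487, 493 and 456 CPM with vemurafenib at 7 days, 166, 177 and 172 CPM with vemurafenib at 48 h, 262, 291 and 278 CPM with THZ1 and 412, 390.1 and 398 CPM in DMSO of COL4A1. For COL4A2 they had 303, 319 and 315 CPM with the combination, 1063, 1051 and 1027 CPM with vemurafenib at 7 days, 417, 479 and 471 CPM with vemurafenib at 48 h, 455, 529 and 467 CPM with THZ1 and 1107, 1039 and 1037 CPM in DMSO. Vemurafenib lowered both by about the same factor, with log2 fold changes of -1.22 ± 0.05 (adjusted p = 1.36e-13) for COL4A1 and -1.22 ± 0.06 (adjusted p = 9.16e-13) for COL4A2, and at 7 days both rose again relative to 48 h (1.40 and 1.12). In the combination they parted, COL4A1 being higher than with vemurafenib alone (0.18) and COL4A2 lower (-0.71). COL4A1 fell in RT112, with 52.1, 55.7 and 57.5 CPM under BGJ398 at 48 h, against 180.2, 179 and 184 CPM in DMSO (log2 fold change -1.88 ± 0.06, adjusted p = 2.92e-13). COL4A2 fell in RT112, with 58.9, 58.4 and 64.1 CPM under BGJ398 at 48 h, against 201, 208 and 206 CPM in DMSO (log2 fold change -1.92 ± 0.06, adjusted p = 4.08e-14). In RT112 the combination lay between BGJ398 and DMSO for both genes, at 106, 109.5 and 114 CPM of COL4A1 and 100.0, 105 and 105 CPM of COL4A2. GSK1120212 raised both in A549 at 48 h (1.24 and 0.78) and more at 7 days. COL4A2 rose in A549, with 815, 883 and 870.4 CPM under GSK1120212 at 7 days, against 149, 157 and 148 CPM under GSK1120212 at 48 h (log2 fold change 2.54 ± 0.05, adjusted p = 3.11e-19). COL4A1 had 604, 642 and 621 CPM there at 7 days against 189.8, 200.3 and 198 CPM at 48 h (1.71 ± 0.05, adjusted p = 3.52e-16).

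The 2 chains also parted in PC9 and in H3122. COL4A1 fell in PC9, with 3.005, 3.35 and 2.82 CPM under erlotinib at 48 h, against 15.1, 13.6 and 13.3 CPM in DMSO (log2 fold change -2.06 ± 0.14, adjusted p = 5.78e-11). COL4A2 in the same libraries had 0.944, 1.08 and 1.36 CPM with erlotinib against 0.521, 0.429 and 0.45 CPM in DMSO, a rise of 1.39 ± 0.38 (adjusted p = 0.00309) at a level near 1 CPM. COL4A2 fell in H3122, with 28.5, 25.3 and 27.4 CPM under the combination, against 43.6, 52.3 and 58.3 CPM under crizotinib at 48 h (log2 fold change -0.92 ± 0.15, adjusted p = 0.000121). COL4A1 had 12.1, 11.5 and 12.7 CPM in that combination against 11.7, 13.6 and 15.6 CPM with crizotinib, a difference of -0.16 ± 0.14 that did not pass the test (adjusted p = 0.437). In N87 COL4A1 was called lower with lapatinib at 48 h, with means of 0.782 CPM against 1.65 CPM in DMSO. COL4A2 was not called there, with means of 4.75 CPM against 3.56 CPM. Whether the 2 genes differ from each other in these contrasts was not tested.

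**Figure D4:**
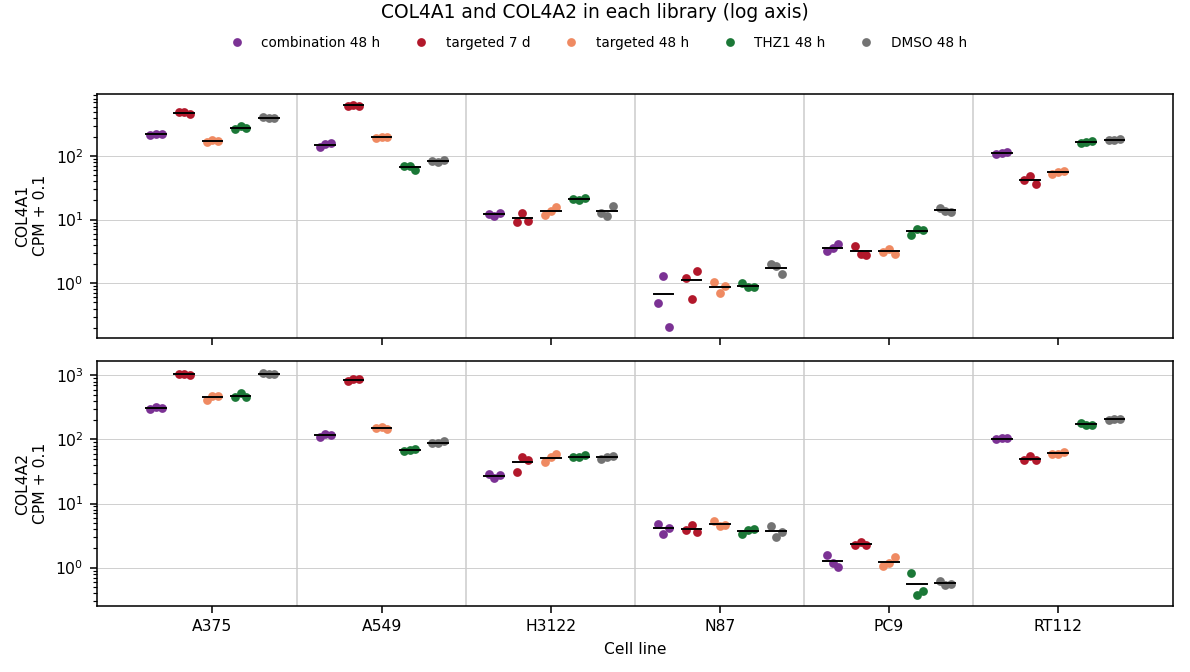
CPM + 0.1 on a log axis of COL4A1 and COL4A2 in every library, by line and arm, with a black bar at the mean of 3 libraries. In A549 and RT112 the arm means keep the same order in both panels, while in PC9 the erlotinib libraries lie below DMSO for COL4A1 and above it for COL4A2.

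Type VI collagen, a beaded microfibril that surrounds cells, is built of COL6A1, COL6A2 and the third chain, such as COL6A3. The first 2 chains fell together with THZ1 in 3 lines, A375, A549 and RT112. In A549 this fall was at levels under 1 CPM and rests on few reads. COL6A1 averaged 0.305 CPM there with THZ1 against 0.894 CPM in DMSO, and COL6A2 0.304 CPM against 0.716 CPM. COL6A2 fell in A375, with 52.5, 55.0 and 51.8 CPM under THZ1, against 151, 153 and 143 CPM in DMSO (log2 fold change -1.60 ± 0.05, adjusted p = 7.98e-14). COL6A2 fell in RT112, with 3.82, 4.94 and 3.78 CPM under THZ1, against 8.60, 8.43 and 10.8 CPM in DMSO (log2 fold change -1.23 ± 0.12, adjusted p = 9.77e-07). COL6A1 fell by less in both lines, -0.48 in A375 and -0.71 in RT112. In RT112, COL6A1 fell to 13.5, 13.3 and 12.5 CPM with the combination, against 56.8, 58.0 and 61.1 CPM with BGJ398 at 48 h, a log2 fold change of -2.11 ± 0.06 (adjusted p = 5.41e-13). The H3122 cells went the other way. In H3122, COL6A1 rose to 29.5, 24.8 and 28.4 CPM with the combination, against 16.3, 19.2 and 16.0 CPM with crizotinib at 48 h, a log2 fold change of 0.69 ± 0.09 (adjusted p = 2.36e-05). COL6A3 ran against its partners in A375. COL6A3 fell in A375, with 0.839, 0.953 and 0.778 CPM under vemurafenib at 48 h, against 4.84, 6.58 and 6.49 CPM in DMSO (log2 fold change -2.83 ± 0.30, adjusted p = 1.26e-07). In A375, COL6A3 rose to 4.81, 7.58 and 4.94 CPM with the combination, against 0.839, 0.953 and 0.778 CPM with vemurafenib at 48 h, a log2 fold change of 2.59 ± 0.30 (adjusted p = 3.37e-07). In the other 3 lines tested the combination raised COL6A3 at levels below 5 CPM, to 1.40, 1.75 and 1.79 CPM in A549 (2.47), 2.93, 3.20 and 3.47 CPM in PC9 (2.70) and 4.70, 4.36 and 4.52 CPM in RT112, against 0.169, 0.359 and 0.304 CPM, 0.429, 0.56 and 0.364 CPM and 0.232, 0 and 0 CPM with the targeted drug in A549, PC9 and RT112. For RT112 no fold is given, since 2 of the 3 libraries with BGJ398 are at 0. THZ1 alone raised it in A375, PC9 and RT112 as well.

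FN1, the fibronectin gene, differed between lines in direction and size. A375 cells held 125, 124 and 111 CPM with the combination, 84.4, 86.1 and 93.1 CPM with vemurafenib at 7 days, 111, 126 and 127 CPM with vemurafenib at 48 h, 165, 151 and 157 CPM with THZ1 and 137, 137 and 132 CPM in DMSO, and A549 cells held 226, 251 and 259 CPM with the combination, 970.3, 916 and 974 CPM with GSK1120212 at 7 days, 262, 252 and 258 CPM with GSK1120212 at 48 h, 51.3, 53.2 and 56.1 CPM with THZ1 and 133, 131 and 128 CPM in DMSO. In A375 the comparisons among the 48 h arms lay between -0.18 and 0.11 on the log2 scale and the calls for vemurafenib and the combination were lost under several alternatives, but 7 days was lower than 48 h (-0.56 ± 0.06, adjusted p = 3.20e-07). FN1 fell in A549, with 51.3, 53.2 and 56.1 CPM under THZ1, against 133, 131 and 128 CPM in DMSO (log2 fold change -1.30 ± 0.05, adjusted p = 6.82e-14). Both GSK1120212 arms lay above DMSO in A549, and 7 days lay above 48 h by 1.93 ± 0.04 (adjusted p = 4.01e-18). H3122 cells held 199, 186 and 193 CPM with the combination, 85.5, 74.7 and 65.9 CPM with crizotinib at 7 days, 428, 496 and 523 CPM with crizotinib at 48 h, 177, 186 and 178 CPM with THZ1 and 197, 207 and 228 CPM in DMSO. The rise with crizotinib at 48 h, 1.09 ± 0.09 (adjusted p = 2.51e-08), was followed by lower levels in the combination (-1.32 ± 0.09 against crizotinib, adjusted p = 9.96e-09) and in the 7-day arm (-2.63 ± 0.10 against 48 h, adjusted p = 5.26e-14).

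N87 cells held 118, 117 and 118 CPM with the combination, 102, 100.1 and 101 CPM with lapatinib at 7 days, 67.1, 68.8 and 69.1 CPM with lapatinib at 48 h, 209.6, 213 and 213 CPM with THZ1 and 119, 109.7 and 105 CPM in DMSO of FN1. It fell with lapatinib (-0.80 ± 0.04, adjusted p = 1.47e-12), rose with THZ1 (0.86 ± 0.04, adjusted p = 4.97e-12) and was higher in the combination than with lapatinib alone (0.75 ± 0.04, adjusted p = 2.18e-11). PC9 cells held 803, 778 and 807 CPM with the combination, 1166, 1224 and 1140.0 CPM with erlotinib at 7 days, 1001, 1020.5 and 989 CPM with erlotinib at 48 h, 267, 265 and 259.8 CPM with THZ1 and 188, 191 and 206 CPM in DMSO. The 3 erlotinib libraries at 48 h were all several times above the 3 DMSO libraries, a rise of 2.49 ± 0.04 (adjusted p = 1.39e-21). RT112 cells held 275, 305 and 312 CPM with the combination, 197, 210.0 and 197 CPM with BGJ398 at 7 days, 129, 144 and 145 CPM with BGJ398 at 48 h, 211, 207 and 214 CPM with THZ1 and 117, 121 and 115 CPM in DMSO. BGJ398 alone did not pass the test there (0.08 ± 0.05, adjusted p = 0.116), and the combination rose by 1.14 ± 0.04 over BGJ398 (adjusted p = 7.48e-12).

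TGFBI encodes a secreted protein that binds collagens and integrins and was named for its induction by TGF-beta. TGFBI fell in N87, with 101, 96.9 and 98.0 CPM under lapatinib at 48 h, against 404, 423 and 405 CPM in DMSO (log2 fold change -2.15 ± 0.05, adjusted p = 1.60e-18). The THZ1 arm of N87 lay on the other side of DMSO, at 779, 789 and 777 CPM (0.86 ± 0.04, adjusted p = 9.50e-12), and at 7 days the level was 158, 179 and 167 CPM (0.76 ± 0.05 against 48 h, adjusted p = 8.68e-11). TGFBI rose in H3122, with 201, 202 and 201 CPM under THZ1, against 98.4, 95.6 and 101 CPM in DMSO (log2 fold change 1.02 ± 0.09, adjusted p = 1.85e-07). In A375 vemurafenib raised TGFBI to 648, 791 and 731 CPM at 48 h against 173, 178 and 179.6 CPM in DMSO (2.03 ± 0.06, adjusted p = 1.71e-15). With the combination, A375 cells held 148, 149.8 and 139 CPM of TGFBI, against 648, 791 and 731 CPM with vemurafenib at 48 h (log2 fold change -2.48 ± 0.06, adjusted p = 1.57e-16). With vemurafenib at 7 days, A375 cells held 99.9, 91.4 and 89.7 CPM of TGFBI, against 648, 791 and 731 CPM with vemurafenib at 48 h (log2 fold change -3.03 ± 0.07, adjusted p = 1.67e-16). Both the combination and the 7-day libraries were below the 3 DMSO libraries in A375.

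THBS1, a matricellular glycoprotein that can activate latent TGF-beta, rose with the targeted drug in A375, A549, H3122, N87 and RT112 and fell in PC9. In A375 it had 3297, 3899.9 and 3719 CPM with vemurafenib and 707, 669 and 682 CPM in DMSO (2.40 ± 0.06, adjusted p = 3.30e-17). In N87 it had 163, 192 and 181 CPM with lapatinib and 71.9, 74.9 and 72.3 CPM in DMSO (1.19 ± 0.07, adjusted p = 1.40e-12). The rises in A549 (0.31), H3122 (0.58) and RT112 (0.47) were smaller, and PC9 gave -0.41 ± 0.04 (adjusted p = 6.26e-08). THBS1 rose in A549, with 162, 144 and 135 CPM under THZ1, against 70.7, 74.5 and 69.4 CPM in DMSO (log2 fold change 1.03 ± 0.10, adjusted p = 5.04e-08). THBS1 rose in H3122, with 149, 123 and 132 CPM under THZ1, against 65.9, 69.5 and 66.6 CPM in DMSO (log2 fold change 0.98 ± 0.10, adjusted p = 1.12e-06). With THZ1 the other called rises were 0.57 in A375, 0.70 in N87 and 0.32 in RT112, while PC9 libraries stood at 1068, 1062 and 1045 CPM with THZ1 and 996, 968 and 1092 CPM in DMSO.

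TNC, an adhesion-modulating matrix protein, fell with the targeted drug in the 3 lines that expressed it. TNC fell in N87, with 0.421, 0.202 and 0.594 CPM under lapatinib at 48 h, against 10.8, 8.65 and 10.9 CPM in DMSO (log2 fold change -4.70 ± 0.25, adjusted p = 9.53e-13). TNC fell in H3122, with 72.4, 68.2 and 66.6 CPM under crizotinib at 48 h, against 260.0, 266 and 289 CPM in DMSO (log2 fold change -2.07 ± 0.15, adjusted p = 6.05e-09). In A375 the fall at 48 h was small (-0.64 ± 0.04, adjusted p = 6.26e-11). TNC fell in A375, with 63.2, 66.2 and 71.3 CPM under vemurafenib at 7 days, against 919, 991 and 992 CPM under vemurafenib at 48 h (log2 fold change -3.94 ± 0.05, adjusted p = 2.06e-20). H3122 and N87 moved in the opposite direction over that time, by 0.84 and 2.44 on the log2 scale. FBN1, which encodes fibrillin 1, the core of elastic microfibrils, rose with the targeted drug in 5 lines and fell in N87. FBN1 rose in PC9, with 33.1, 28.9 and 30.7 CPM under erlotinib at 48 h, against 3.91, 5.32 and 6.30 CPM in DMSO (log2 fold change 2.71 ± 0.11, adjusted p = 9.33e-15). THZ1 alone raised it in PC9 too, to 17.3, 19.0 and 18.3 CPM (1.75 ± 0.12, adjusted p = 2.77e-10). In A375 FBN1 had 235, 235 and 248 CPM with vemurafenib and 71.5, 72.2 and 70.3 CPM in DMSO (1.75 ± 0.07, adjusted p = 2.73e-14). In RT112 it had 4.10, 4.05 and 3.09 CPM with BGJ398 and 1.00, 0.522 and 0.62 CPM in DMSO (2.21 ± 0.26, adjusted p = 1.10e-06). FBN1 fell in H3122, with 2.85, 2.29 and 2.66 CPM under crizotinib at 7 days, against 11.6, 10.7 and 13.2 CPM under crizotinib at 48 h (log2 fold change -2.14 ± 0.15, adjusted p = 5.47e-10). The calls in A549 (1.11 ± 0.40, adjusted p = 0.016) and N87 (-0.94 ± 0.32, adjusted p = 0.0124), at about 1 CPM, were lost in DESeq2 and without 1 of 3 libraries in A549 or 1 in N87.

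With the targeted drug SPARC was called higher in 1 of the 3 lines tested, A375, and LUM in 3 of 4. In PC9, the other line that expressed SPARC in DMSO, it was not called with erlotinib at 48 h. In A375 SPARC had 5886, 5698 and 5467 CPM at 7 days, 2892, 3062 and 2965 CPM at 48 h of vemurafenib and 1361, 1383 and 1419 CPM in DMSO, so it rose at both times (1.10 for 48 h against DMSO, 0.85 for 7 days against 48 h). In A549 SPARC had 3.76, 6.13 and 3.05 CPM at 7 days against 0, 0 and 0.101 CPM at 48 h, and this rise rests on 48 h libraries with almost no counts. LUM rose with BGJ398 in RT112, with 393, 437 and 450.4 CPM against 138, 139 and 135 CPM in DMSO (1.48 ± 0.04, adjusted p = 3.84e-14), and fell in the combination to 193, 205 and 214 CPM (-1.01 ± 0.04, adjusted p = 9.48e-12). In A375 the combination raised LUM, by 1.80 ± 0.14 over vemurafenib (adjusted p = 2.11e-09). POSTN averaged at most 0.666 CPM in any group.

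**Figure D5:**
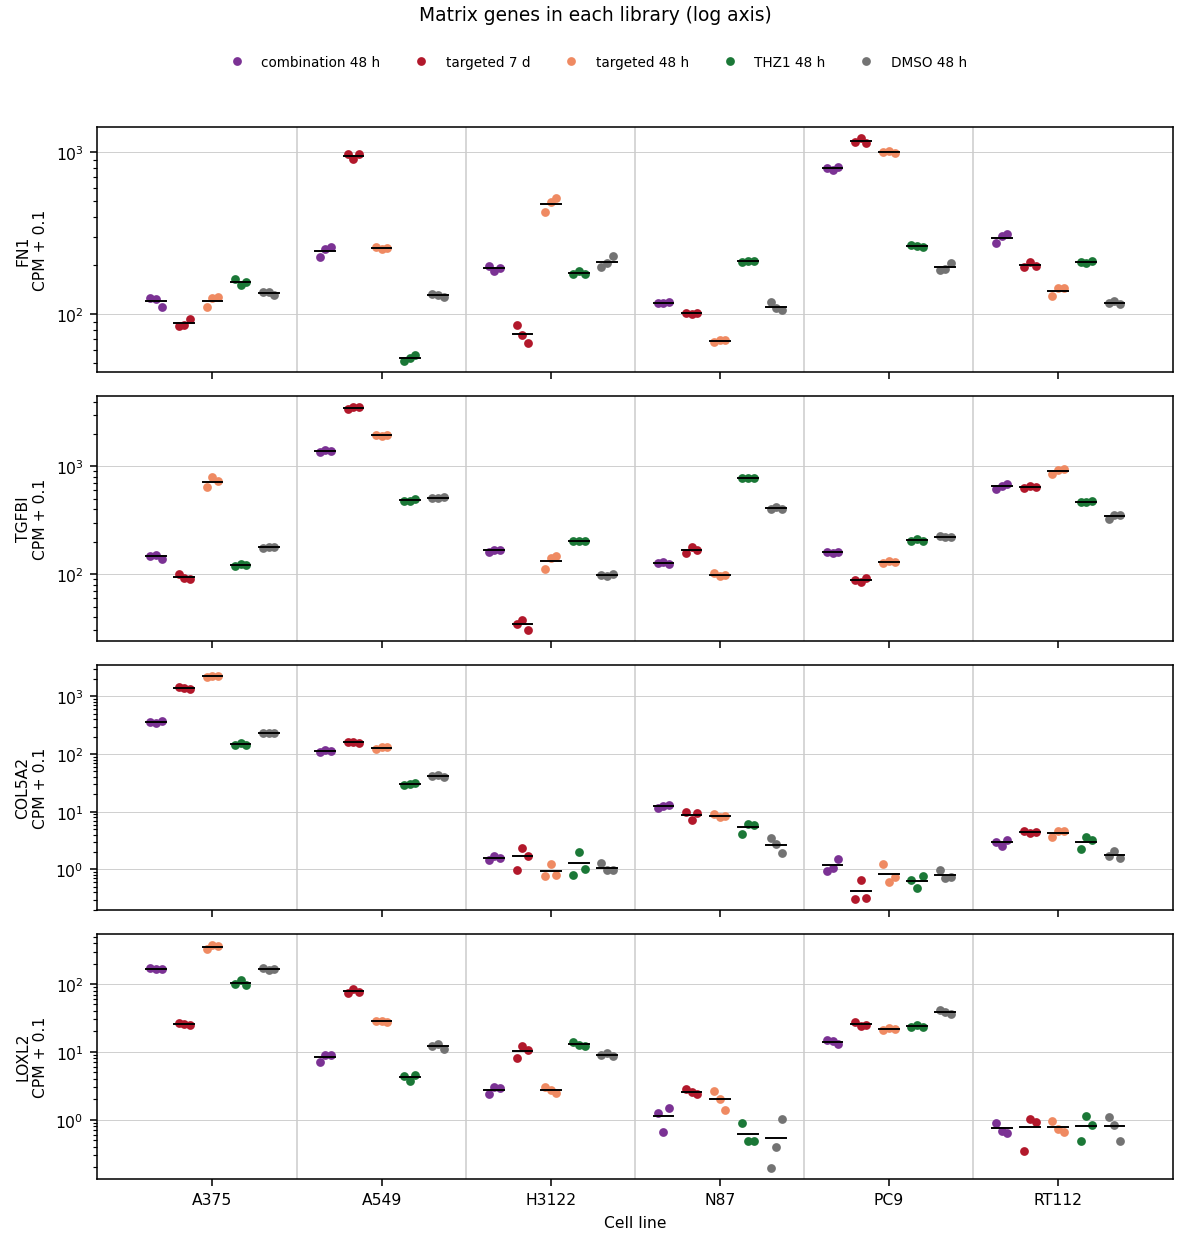
CPM + 0.1 on a log axis of FN1, TGFBI, COL5A2 and LOXL2 in every library, by line and arm, with a black bar at the mean of 3 libraries. In A375 the vemurafenib libraries at 48 h are the highest of the line for TGFBI, COL5A2 and LOXL2, and the 7-day libraries of TGFBI and LOXL2 are the lowest.

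The lysyl oxidases LOX and LOXL2 crosslink collagen and elastin. LOXL2 fell in A375, with 26.8, 25.5 and 24.8 CPM under vemurafenib at 7 days, against 324, 379 and 359 CPM under vemurafenib at 48 h (log2 fold change -3.86 ± 0.07, adjusted p = 1.48e-17). At 48 h vemurafenib had raised LOXL2 over its DMSO libraries of 175, 162 and 166 CPM (1.08 ± 0.06, adjusted p = 7.26e-12). LOXL2 fell in H3122, with 2.95, 2.65 and 2.38 CPM under crizotinib at 48 h, against 8.83, 9.37 and 8.51 CPM in DMSO (log2 fold change -1.83 ± 0.17, adjusted p = 9.31e-08). The H3122 level at 7 days was 7.98, 11.9 and 10.5 CPM (1.96 ± 0.16 against 48 h, adjusted p = 5.19e-09), and with THZ1 alone it was higher than in DMSO by 0.51. In A549, LOXL2 fell to 4.35, 3.65 and 4.52 CPM with THZ1, against 12.2, 13.1 and 10.9 CPM in DMSO, a log2 fold change of -1.54 ± 0.13 (adjusted p = 7.73e-09). In A549, LOXL2 fell to 7.07, 8.95 and 8.84 CPM with the combination, against 28.4, 28.8 and 27.1 CPM with GSK1120212 at 48 h, a log2 fold change of -1.83 ± 0.10 (adjusted p = 3.07e-11). THZ1 alone lowered LOXL2 in A375 and PC9 too, with log2 fold changes of -0.81 and -0.78. LOX was tested in 4 lines and had its highest levels in PC9. LOX rose in PC9, with 12.7, 12.7 and 12.9 CPM under erlotinib at 7 days, against 5.41, 6.90 and 7.09 CPM under erlotinib at 48 h (log2 fold change 0.86 ± 0.12, adjusted p = 4.89e-06).

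The contractile genes encode smooth muscle actin (ACTA2), the actin cross-linker transgelin (TAGLN), tropomyosins (TPM1, TPM2) and caldesmon (CALD1). With the targeted drug 18 of 29 tested pairs of gene and line rose and 8 fell, against 32.9% and 32.9% of all genes, each line weighted by its pairs. TAGLN rose in A549, with 27.1, 27.2 and 26.0 CPM under GSK1120212 at 48 h, against 2.30, 2.16 and 2.50 CPM in DMSO (log2 fold change 3.53 ± 0.12, adjusted p = 3.78e-16). TAGLN rose in RT112, with 19.7, 10.4 and 12.7 CPM under BGJ398 at 48 h, against 3.69, 2.33 and 1.49 CPM in DMSO (log2 fold change 2.33 ± 0.31, adjusted p = 5.28e-06). TAGLN also rose with the targeted drug in A375 (0.76 ± 0.22, adjusted p = 0.00487), N87 (0.66 ± 0.10, adjusted p = 6.56e-06) and PC9 (1.17 ± 0.09, adjusted p = 1.03e-10). In H3122, with 0.276, 0.667 and 1.07 CPM under crizotinib and 0.493, 0.526 and 0.587 CPM in DMSO, the difference did not pass the test (0.21 ± 0.54, adjusted p = 0.777).

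TAGLN was higher at 7 days than at 48 h in 4 lines, 3 of which had raised it at 48 h. TAGLN rose in A549, with 166, 196 and 184 CPM under GSK1120212 at 7 days, against 27.1, 27.2 and 26.0 CPM under GSK1120212 at 48 h (log2 fold change 2.80 ± 0.07, adjusted p = 5.78e-18). TAGLN rose in N87, with 49.2, 45.9 and 46.8 CPM under lapatinib at 7 days, against 16.2, 16.1 and 18.1 CPM under lapatinib at 48 h (log2 fold change 1.49 ± 0.08, adjusted p = 1.07e-11). TAGLN rose in RT112, with 64.1, 49.4 and 45.0 CPM under BGJ398 at 7 days, against 19.7, 10.4 and 12.7 CPM under BGJ398 at 48 h (log2 fold change 1.90 ± 0.21, adjusted p = 2.70e-06). H3122, the last of these, stayed under 2 CPM, and in A375 TAGLN fell over the same time (-0.80 ± 0.21, adjusted p = 0.00511). THZ1 alone raised it in PC9, N87 and RT112. In PC9, TAGLN rose to 20.1, 20.6 and 19.97 CPM with THZ1, against 7.54, 7.91 and 7.93 CPM in DMSO, a log2 fold change of 1.31 ± 0.08 (adjusted p = 3.80e-11). In RT112, TAGLN rose to 18.9, 14.8 and 18.2 CPM with THZ1, against 3.69, 2.33 and 1.49 CPM in DMSO, a log2 fold change of 2.70 ± 0.30 (adjusted p = 3.04e-06). The combination exceeded the targeted drug in PC9 and RT112. With the combination, PC9 cells held 74.9, 77.5 and 74.0 CPM of TAGLN, against 17.0, 14.6 and 16.4 CPM with erlotinib at 48 h (log2 fold change 2.16 ± 0.06, adjusted p = 3.15e-17). With the combination, RT112 cells held 55.4, 48.6 and 50.8 CPM of TAGLN, against 19.7, 10.4 and 12.7 CPM with BGJ398 at 48 h (log2 fold change 1.90 ± 0.21, adjusted p = 7.61e-07). In the other 4 lines the combination did not differ from the targeted drug past the threshold. TAGLN shares 11.4% of its exon bases with PCSK7 on the opposite strand.

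TPM1 rose with the targeted drug in 5 lines. TPM1 rose in A549, with 1153, 1139 and 1128 CPM under GSK1120212 at 48 h, against 254, 238 and 227 CPM in DMSO (log2 fold change 2.27 ± 0.05, adjusted p = 1.05e-19). A375 gave 1.70 ± 0.08 (adjusted p = 1.25e-12), while the rises in H3122 (0.52), PC9 (0.30) and RT112 (0.42) were smaller, and N87 fell by 0.27. TPM1 shares 16.1% of its exon bases with the antisense gene TPM1-AS. CALD1 rose in RT112, with 47.2, 54.8 and 46.4 CPM under BGJ398 at 7 days, against 10.7, 9.26 and 8.62 CPM under BGJ398 at 48 h (log2 fold change 2.38 ± 0.11, adjusted p = 1.56e-10). CALD1 had also risen in A549 and PC9 at 48 h, by 1.30 and 1.24. ACTA2, low in all 6 lines in DMSO, rose most in A375 with THZ1. ACTA2 rose in A375, with 36.3, 33.6 and 34.6 CPM under THZ1, against 4.99, 5.94 and 5.48 CPM in DMSO (log2 fold change 2.54 ± 0.11, adjusted p = 1.66e-12). In the combination of A375 ACTA2 had 49.8, 50.1 and 55.3 CPM (1.51 ± 0.09 against vemurafenib, adjusted p = 1.68e-11). ACTA2 shares 17.3% of its exon bases with the antisense gene ACTA2-AS1 and 12.8% with FAS, and reads of these genes cannot be told apart without strand.

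ITGA5 and ITGB1 form the fibronectin receptor. ITGA5 fell with the targeted drug in A375, H3122, N87 and PC9 and rose with THZ1 alone in the 5 lines other than A549. PC9 had 43.4, 45.5 and 49.0 CPM with THZ1 and 22.7, 21.7 and 23.2 CPM in DMSO (0.97 ± 0.09, adjusted p = 6.76e-09). The other rises with THZ1 lay between 0.27 in A375 and 0.56 in H3122, and A549 fell by 0.59. ITGA5 rose in N87, with 51.8, 57.2 and 52.7 CPM under the combination, against 31.5, 27.9 and 30.3 CPM under lapatinib at 48 h (log2 fold change 0.82 ± 0.06, adjusted p = 8.05e-10). ITGB1, the shared beta chain of many integrins, rose with the targeted drug in A375, A549, PC9 and RT112 and fell in H3122 and N87, with log2 fold changes between -0.48 and 0.59.

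With the line as the replicate, few members were called. The 3 libraries of each arm were summed, and 16 members reached 1 CPM in at least 3 libraries of every line and were tested among 11875 genes. For the targeted drug at 48 h, 1 of the 16 was called higher and 0 lower, against 18.6% and 18.5% of all genes. DESeq2 called 3, a fit of the 2 arms alone called 3, and 0 were called without A375 and 2 without A549. The share of all genes called is given for the main edgeR fit only, so counts from the other fits stand without a background. The gene called was FBN1 (1.25 ± 0.49, adjusted p = 0.0499), higher in 5 of 6 lines, and its call was lost without A375, without A549, without PC9 or without RT112, with estimates of 1.08, 1.26, 1.01 and 1.06. THBS1 (0.85 ± 0.36, adjusted p = 0.0633), TPM1 (0.86 ± 0.38, adjusted p = 0.0788) and TAGLN (1.31 ± 0.62, adjusted p = 0.0974) were higher in the estimate of 5, 5 and 6 lines and did not pass the threshold. With THZ1 0 of 16 were called by edgeR and 0 by DESeq2, against 0.0589% higher and 0.0253% lower of all genes, and 0 had an unadjusted p under 0.05. With the combination 0 were called by edgeR, against 3.7% and 4.34% of all genes, with 1 at an unadjusted p under 0.05, SNAI1 (1.51 ± 0.48, adjusted p = 0.052), and DESeq2 called 1. At 7 days 0 members and 0% of all genes were called by edgeR and 0 members by DESeq2, with 1 member at an unadjusted p under 0.05.

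The difference between lines was tested itself, in a fit of all 90 libraries with a term for each line's response. Of 36 members tested, 32 differed between lines in their response to the targeted drug at 48 h, against 74.8% of all genes. For THZ1 28 differed, against 61.4%, for the combination against the targeted drug 33, against 73.8%, and for 7 days against 48 h 34, against 71.6%. TGFBI differed most clearly in the response to the targeted drug (F = 809, adjusted p = 1.23e-56), from -2.15 in N87 to 2.03 in A375. CDH1, which rose in all 5 tested lines, also differed in size between lines (adjusted p = 1.05e-21).

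Other genes of the same processes, 62 found of those listed, were read for TGF-beta signaling, matrix assembly, contractility, integrins and the epithelial program. Across lines the targeted drug raised 8 of the 48 tested and lowered 2, against 18.6% and 18.5% of all genes, so the share raised was no higher than the background. The raised genes included HSPG2, the basement membrane proteoglycan perlecan (0.92 ± 0.35, adjusted p = 0.0459), LAMA5, a laminin chain (0.65 ± 0.24, adjusted p = 0.0375), COL12A1, a fibril-associated collagen (1.16 ± 0.39, adjusted p = 0.0229), COL18A1, a basement membrane collagen (0.81 ± 0.28, adjusted p = 0.027), ITGAV (0.59 ± 0.22, adjusted p = 0.0396) and ELF3, an epithelial transcription factor (0.81 ± 0.28, adjusted p = 0.0258). The lowered genes were the integrins ITGA6 (-1.07 ± 0.39, adjusted p = 0.0343) and ITGB5 (-1.09 ± 0.22, adjusted p = 0.000849). With THZ1 and at 7 days 0 of 48 were called, and the combination lowered COL18A1 (-1.201 ± 0.28, adjusted p = 0.0126) and SMAD4, the common mediator of TGF-beta signaling (-0.52 ± 0.14, adjusted p = 0.0237). Of 12 listed TGF-beta pathway genes 11 were tested across lines, and 0 were called with the targeted drug.

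Within lines, the contractile genes outside the 37 gave in A549 with GSK1120212 11 of 12 higher and 1 lower (all genes 36.8% and 37.4%), among them MYH9 (1.93 ± 0.03, adjusted p = 1.16e-20), the heavy chain of non-muscle myosin IIA, and ZYX (1.93 ± 0.04, adjusted p = 2.52e-19), or zyxin, a protein of focal adhesions. In N87 the same genes gave 2 of 11 higher and 8 lower with lapatinib at 48 h (all genes 35.5% and 35.4%). At 7 days against 48 h they gave 10 of 11 higher and 0 lower there (all genes 22.3% and 20.3%). Falls also outnumbered rises with the targeted drug at 48 h in the remaining lines. A375 gave 3 of 11 higher and 6 lower (all genes 34.3% and 32.9%). H3122 gave 0 of 11 higher and 6 lower (all genes 22.0% and 24.1%). PC9 gave 3 of 12 higher and 6 lower (all genes 35.2% and 32.8%). RT112 gave 2 of 11 higher and 5 lower (all genes 34.2% and 35.1%). In PC9 they gave 11 of 12 higher and 1 lower with the combination against erlotinib (all genes 33.4% and 34.9%), the comparison in which TAGLN rose. In A375 they gave 1 of 11 higher and 8 lower at 7 days against 48 h (all genes 18.6% and 21.4%). Over all the listed genes together, the targeted drug gave 39 of 55 higher and 11 lower in A549 (all genes 36.8% and 37.4%), 19 of 58 higher and 24 lower in N87 (all genes 35.5% and 35.4%), 28 of 55 higher and 16 lower in A375 (all genes 34.3% and 32.9%), 15 of 61 higher and 21 lower in H3122 (all genes 22.0% and 24.1%), 30 of 61 higher and 20 lower in PC9 (all genes 35.2% and 32.8%) and 19 of 59 higher and 22 lower in RT112 (all genes 34.2% and 35.1%). The share raised was below that of all genes in N87 and RT112.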

How the data were processed

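Per the labels' protocols, an RNeasy micro kit was used for RNA and a NEBNext Ultra RNA kit for the libraries. The authors deposited an expected count for every gene and library, from RSEM 1.2.12 with Bowtie2 2.2.1 on hg19, per the submitters' processing notes. RSEM shares reads between similar genes, so between 7.83 and 13.75% of a library's values carry decimals, and all were rounded to whole numbers before testing. The annotation and the strand setting are not given in the sources used here. Symbols came from GENCODE v29, which matched 47111 of 53893 IDs, and exon overlaps were read from it too. Sequence came from RefSeq.

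The 37 members, the gene lists and the comparisons were chosen with earlier results of these data known. The 15 libraries of a line entered 1 fit in edgeR 4.0.16 under R 4.3.3 (quasi-likelihood, TMM, filterByExpr). Across lines, 30 sums of 3 libraries were fitted with a line term, keeping genes that reach 1 CPM in 3 or more libraries in every line. The difference between lines was an F test with 5 degrees of freedom over all 90 libraries. Calls are at 0.05 after Benjamini-Hochberg adjustment over all genes tested. A SE is the log2 fold change divided by the root of its F statistic. CPM and means ± SD are of unrounded counts over the plain library total. The fits were tested on simulated data with known changes.

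Genes given with the value of every library were VIM, CDH1, CDH2, FN1, EPCAM and ZEB1 in lines where they reach 5 CPM, up to 3 members with the largest change per line and comparison among those called and at 5 CPM, members called in one direction in at least 5 lines, and members called across lines. ZEB2, SPARC, LUM, CALD1 and others outside that rule were chosen after their values were seen. Library totals were 5.64 to 14.36 M with a median of 11.0 M, and no pair of libraries was alike within sampling noise (lowest chi-square per gene 1.50). Alternatives were other scalings, no filter, DESeq2 1.42.0, a replicate block and leaving out each library or line. Leaving out the 4 replicate 1 libraries of RT112 and the H3122 library that stands apart was added after seeing the data.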

Additional observations from a re-analysis of the deposited data

Results flagged for a closer look

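In 12 cases a member rose in at least 2 lines and fell in at least 2 lines under the same comparison, with log2 fold changes at least 3 apart, and the test between lines (edgeR, 5 degrees of freedom, adjusted over all genes) passed. How many of all genes meet this rule was not counted, so 12 is not set against a background. Of all genes, 74.8% passed that test for the targeted drug at 48 h and 71.6% for 7 days against 48 h. For the targeted drug at 48 h against DMSO there were 7. VIM ran from -1.01 in N87 to 2.46 in H3122 (adjusted p = 1.25e-22), both at levels under 4 CPM. FN1 ran from -0.80 in N87 to 2.49 in PC9 (adjusted p = 1.97e-46), and COL1A1 from -0.97 in A375 to 2.47 in A549 (adjusted p = 5.31e-23). COL4A2 ran from -1.92 in RT112 to 1.39 in PC9 (adjusted p = 1.28e-33). Its PC9 means were only 0.467 CPM in DMSO and 1.13 CPM with erlotinib at 48 h. TGFBI ran from -2.15 in N87 to 2.03 in A375 (adjusted p = 1.23e-56). LOXL2 ran from -1.83 in H3122 to 1.99 in N87 (adjusted p = 4.5e-28). The N87 means of LOXL2 were only 0.432 CPM in DMSO and 1.91 CPM with lapatinib at 48 h. ACTA2 ran from -2.94 in PC9 to 2.25 in H3122 (adjusted p = 6.53e-17), both at levels under 3 CPM.

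For 7 days against 48 h of the same drug there were 5. VIM ran from -1.35 in H3122 to 1.72 in N87 (adjusted p = 1.15e-21). Its N87 means were only 0.816 CPM at 48 h and 2.75 CPM at 7 days. FN1 ran from -2.63 in H3122 to 1.93 in A549 (adjusted p = 2.98e-53). TGFBI ran from -3.03 in A375 to 0.89 in A549 (adjusted p = 4.1e-54). TPM1 ran from -2.02 in A375 to 1.14 in A549 (adjusted p = 1.19e-43). FBN1 ran from -2.14 in H3122 to 1.09 in A549 (adjusted p = 2.44e-25). The A549 means of FBN1 were only 1.11 CPM at 48 h and 2.34 CPM at 7 days. The H3122 values hold the 7-day library that stands apart.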

How the results depend on the processing

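Within lines, no count of members called moved by more than 1.5 times under any alternative run. Over the 6 libraries that enter a comparison, leaving out 1 at a time moved the count most for H3122 at 7 days against 48 h, to between 17 and 22 members. Of 1888 alternatives to named results 36 lost the call, 0 changed direction, and 1852 did neither. Lost calls outside those given above were CDH2 in PC9 with erlotinib under plain library size (0.17, adjusted p = 0.0696), FN1 in PC9 at 7 days without 1 library (0.07 and 0.09), and FN1 in A549 with the combination under plain library size (-0.07, adjusted p = 0.241) and without any 1 of 3 libraries (-0.08 to -0.13, adjusted p 0.0524 to 0.138). Plain library size moved the median of all genes by -0.13 to 0.16 (log2) in A375, PC9 and RT112.

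Across lines, the count for the targeted drug was 4 of 36 with filterByExpr, 3 with DESeq2, 3 with the 2 arms fitted alone, 0 without A375 and 2 without A549. For the combination it was 1 with filterByExpr, 1 with DESeq2 and 1 without A549, and for THZ1 it was 1 with the 2 arms fitted alone. filterByExpr tests more members, and for the other settings the cause was not tested. The shares of all genes called under these settings are not given here, so the counts stand without a background. The adjusted p of FBN1 was 0.083 with filterByExpr and up to 0.165 without 1 line.

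Library numbers recur between arms, but in none of the 8 comparisons with 3 shared numbers did any correlation of deviations pass 0.1. With 2 shared numbers both passed it in RT112 at 7 days (0.108 and 0.231), where a block left 15 members called, the same count as without it, and in no other comparison. In RT112 the higher of the 2 also passed it for BGJ398 against DMSO (0.078 and 0.282) and for the combination (0.055 and 0.109). The rule for pairing asked for 3 shared numbers, and every RT112 comparison has 2, so the rule could not decide for RT112. The numbers were not taken to pair libraries. A replicate block left 30 members called with vemurafenib in A375 and 11 with the combination in H3122, and moved no count by over 1.5 times. Under the block the FN1 calls in A375 with vemurafenib (-0.14, adjusted p = 0.0723) and in A549 with the combination (-0.11, adjusted p = 0.0648) were lost. Members under about 1 CPM rest on a few reads per library, and fold changes there are imprecise.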
